A study of Homo sapiens with 4 samples.

Results

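Nuclear genes for the respiratory chain, the ATP synthase and the protein import machinery of mitochondria were followed in 2 gastric cancer cell lines with and without isorhamnetin (ISO), a plant flavonol. The members were all protein-coding genes outside the mitochondrial genome whose symbols begin with NDUF, COX and a digit, UQCR, ATP5, SDHAF, or TIMM or TOMM and a digit, together with CYC1 and the SDH genes for the complex II subunits. This rule took 67 of the 2897 genes in the deposited table and used no measured value. GENCODE 29 holds 138 protein-coding nuclear genes whose symbols match, and those without a row in the table were not analysed here. The label of respiratory chain subunits covers only part of the list. It held 48 subunits of the 5 complexes (16 of complex I, 2 of complex II, 5 of complex III, 11 of complex IV and 14 of the ATP synthase), 5 assembly factors, 5 parts of the outer membrane translocase TOM, the cytosolic factor TOMM34, 4 parts of the inner membrane translocase TIM and 4 small TIM chaperones.

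The study asked how ISO, which it tested against gastric cancer cells, acts on their transcriptome. AGS-1 and HGC-27 are established human gastric carcinoma lines, both labelled wild type, grown in RPMI-1640 with serum and not otherwise altered. Each line gave 1 untreated library and 1 library treated with ISO for 24 h, at 50 μM by the labels, while the study's text names a lower dose. The study's text also speaks of duplicates, but the table has 1 column per line and treatment, so every ISO ratio within a line has no replicate check and no p-value.

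Mitochondria make ATP by passing electrons along complexes I to IV and using the proton gradient that results to turn the ATP synthase. Complex II is encoded wholly in the nucleus, whereas complexes I, III and IV and the ATP synthase also take subunits from the mitochondrial genome. Nuclear-encoded subunits are made in the cytosol and enter through TOM, after which TIM and the small TIM chaperones carry them to the inner membrane or the matrix. These genes are active in nearly all tissues, and transcription factors such as NRF-1 and the ETS factor GABP are known to act on many of their promoters.

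The values were FPKM, fragments scaled by gene length and library size. The libraries held 15235004 and 15957590 fragments in AGS-1 (control, ISO) and 20199425 and 17072456 in HGC-27, recovered from the steps of the FPKM values. Between 138 and 37371 fragments lay behind each member's value. The epithelial genes EPCAM, KRT8, KRT18 and KRT19 lay between 167 and 598 FPKM in AGS-1 but at 2.19 FPKM or less in HGC-27, where VIM, TWIST1 and COL1A1 lay between 155 and 348 FPKM. The other 11 of the 18 markers of epithelium, mesenchyme, stomach mucosa, blood and stroma had no row. On the scale log2(FPKM + 1) the median over all 2883 genes averaging 1 FPKM or more moved under ISO by -0.29 (AGS-1) and -0.11 (HGC-27), so ISO ratios are given relative to these medians unless the deposited scale is named. In the same libraries the mRNAs of the mitochondrial genome went from 6.93% to 11.7% of fragments in AGS-1 and from 7.14% to 9.55% in HGC-27. The genes of the deposited table together held 78.45% and 64.37% of fragments in AGS-1 (control, ISO) and 61.05% and 59.96% in HGC-27. The part of either shift in the medians was not tested.

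The promoters of 55 of the 67 members were found by symbol among RefSeq promoters (GRCh38.p14), and the 250 bases before the start were searched on both strands. The letters GCGCATGCG, which NRF-1 is known to bind, stood in the promoter of 8 of these 55 members (14.5%) and of 2.02% of the 27305 genes in the promoter table. The ETS letters CCGGAAG stood in 20 of the 55 (36.4%) against 10.2% of genes, and the Sp1 letters GGGCGG in 36 (65.5%) against 46.2%. TATAAA was in 3 of the 55 (5.45%) against 13.0%. The CCAAT letters, also searched, were in 20 of the 55 (36.4%) against 37% of genes, so they were no more frequent in the members. A match is only a run of letters, and no binding was measured. The promoters below belong to members at the ends of the ISO ratios or of the difference between the lines, with NRF-1 or ETS letters in capitals, 5′ to 3′ on the strand of the gene.
NDUFB4: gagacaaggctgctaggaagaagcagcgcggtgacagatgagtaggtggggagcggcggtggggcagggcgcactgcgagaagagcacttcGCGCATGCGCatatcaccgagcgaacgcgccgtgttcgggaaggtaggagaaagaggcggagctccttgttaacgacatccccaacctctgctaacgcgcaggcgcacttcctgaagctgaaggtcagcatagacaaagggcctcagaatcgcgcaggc
TIMM9: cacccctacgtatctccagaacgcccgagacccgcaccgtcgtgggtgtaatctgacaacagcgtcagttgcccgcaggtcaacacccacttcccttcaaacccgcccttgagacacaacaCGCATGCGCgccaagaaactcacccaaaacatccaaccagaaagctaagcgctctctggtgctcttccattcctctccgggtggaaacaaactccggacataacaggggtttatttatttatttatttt
TOMM7: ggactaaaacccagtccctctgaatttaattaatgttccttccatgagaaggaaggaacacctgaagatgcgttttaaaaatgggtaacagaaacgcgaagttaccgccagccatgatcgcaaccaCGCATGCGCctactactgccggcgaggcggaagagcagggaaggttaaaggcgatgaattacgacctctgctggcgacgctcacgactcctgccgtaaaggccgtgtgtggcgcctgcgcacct
TIMM13: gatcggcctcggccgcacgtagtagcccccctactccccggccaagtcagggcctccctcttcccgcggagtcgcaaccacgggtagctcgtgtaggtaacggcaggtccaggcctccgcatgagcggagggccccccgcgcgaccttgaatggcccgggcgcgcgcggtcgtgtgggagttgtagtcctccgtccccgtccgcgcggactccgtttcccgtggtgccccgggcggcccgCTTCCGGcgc
COX8A: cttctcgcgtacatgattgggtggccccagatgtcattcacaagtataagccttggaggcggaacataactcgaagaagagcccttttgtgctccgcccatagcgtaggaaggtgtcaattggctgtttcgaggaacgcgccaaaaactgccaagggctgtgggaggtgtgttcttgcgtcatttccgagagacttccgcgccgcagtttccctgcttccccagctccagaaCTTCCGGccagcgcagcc
NDUFB7: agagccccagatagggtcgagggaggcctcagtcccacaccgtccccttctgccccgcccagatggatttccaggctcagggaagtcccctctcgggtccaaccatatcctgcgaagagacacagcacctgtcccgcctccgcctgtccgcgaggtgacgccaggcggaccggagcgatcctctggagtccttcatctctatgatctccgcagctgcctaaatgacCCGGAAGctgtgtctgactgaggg
In NDUFB4 (chr3:120596086-120596335, plus strand) the NRF-1 letters run over each other on both strands, from 159 bases before the start. They begin 129 bases before the start in TIMM9 (chr14:58427532-58427781, minus strand) and 124 before it in TOMM7 (chr7:22822850-22823099, minus strand). In TIMM13 (chr19:2427587-2427836, minus strand), COX8A (chr11:63974370-63974619, plus strand) and NDUFB7 (chr19:14572067-14572316, minus strand) the ETS letters begin 10, 18 and 24 bases before the start. The members with these letters did not share 1 direction under ISO. Of the 8 with NRF-1 letters, 5 had an AGS-1 ratio below the median of all genes and 4 had an HGC-27 ratio below it, with NDUFB4 among the highest and TIMM9 among the lowest of the list in both lines. Of the 20 with ETS letters, 12 lay below it in AGS-1 and 11 in HGC-27.

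All 67 members passed the filter on low values, and the median member stood at 31.9, 26.0, 42.1 and 36.8 FPKM (AGS-1 control, AGS-1 ISO, HGC-27 control, HGC-27 ISO; this order holds for every set of 4 values here). ATP5F1B, the catalytic β subunit of the ATP synthase (chr12:56638175-56645984), was the highest in all 4 libraries at 337, 246, 827 and 653 FPKM. NDUFS5, an accessory subunit of complex I (chr1:39026318-39034636), followed at 157, 106, 343 and 282 FPKM. Both were higher in the HGC-27 libraries, without overlap. The members of lowest mean were TIMM17B, SDHAF3 and ATP5PF, of which ATP5PF, a stalk subunit of the ATP synthase, hardly differed among libraries at 14.0, 13.6, 14.0 and 12.8 FPKM. Within a complex the levels were uneven. The highest subunit was 31.5 to 59.2 times the lowest in the ATP synthase and 17.1 to 43.9 times in complex I, but only 1.76 to 2.25 times in complex III. With FPKM recomputed to the length of the longest coding transcript of each gene, an alternative chosen after seeing the data, these ranges were 18.4 to 43.5, 8.47 to 35.6 and 2.39 to 4.43, so complex III kept the narrowest of the 3 with either length.

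**Figure D1:**
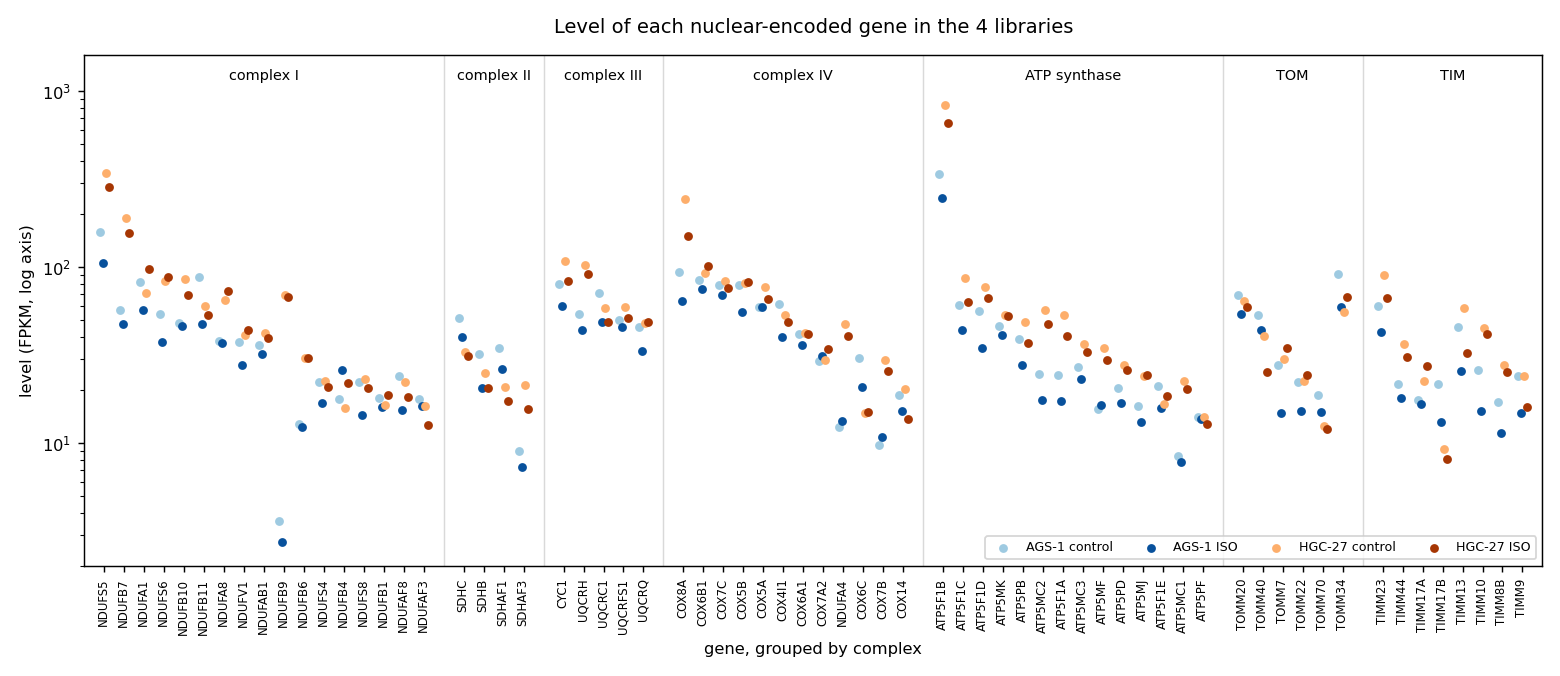
FPKM (log axis) of 66 of the 67 members, grouped by complex, with 1 point for each of the 4 libraries. ATP5F1B stands above every other member, and the AGS-1 points of NDUFB9, NDUFA4, COX7B and ATP5MC1 lie below the HGC-27 points of the same gene.

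Under ISO no member changed 2-fold on the deposited scale in either line, and the group stayed close to the median gene. In AGS-1, 0.832% of the 2883 genes were at least 2-fold higher and 6.66% at least 2-fold lower. In HGC-27 these shares were 0.555% and 0.937%. In AGS-1 the 67 members had a median relative log2 ratio of -0.08, with 39 below the median gene and 28 above. In HGC-27 they had one of -0.04, with 41 below and 26 above. On the deposited scale their medians were -0.37 (AGS-1) and -0.15 (HGC-27), beside -0.29 and -0.11 for all genes. There 61 members were lower under ISO in AGS-1 and 49 in HGC-27. The middle 50% of the members ran from -0.23 to 0.12 in AGS-1 and from -0.16 to 0.11 in HGC-27, a narrower span than the -0.28 to 0.24 and -0.18 to 0.20 of all genes. The median counting SE of a single member's log2 ratio was 0.07 (AGS-1) and 0.05 (HGC-27), which is not the error of the median over the list. Across the 67 members the ratios in the 2 lines had a Pearson r of 0.27 and a Spearman rho of 0.19, a description over genes that share 4 libraries. There were 26 members below the median gene in both lines and 13 above it in both.

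With both lines together, which gives 2 libraries per treatment, limma (cell line and treatment in the model) called 27 genes at an adjusted p under 0.05, 0.937% of those tested, and none of them was a member. At an unadjusted p under 0.05 there were 11 members (16.4%) and 578 of all genes (20.0%), of which 10 members (90.9%) and 514 genes (88.9%) were lower under ISO on the deposited scale. The test has 1 residual degree of freedom, which is the difference of the ISO ratio between the lines. It borrows most of its estimate of the spread from other genes. All limma estimates for ISO are on the deposited scale, so the shift of the median gene is still in them.

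**Figure D2:**
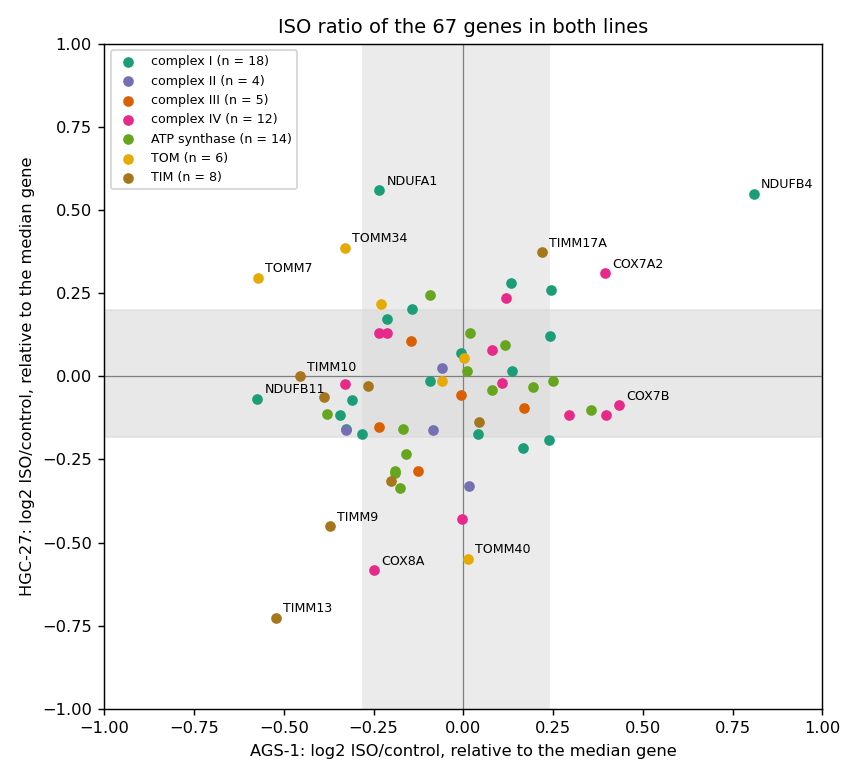
Log2 ratio of ISO to control relative to the median gene in AGS-1 (x axis) and HGC-27 (y axis) for the 67 members, coloured by complex, with grey bands for the middle 50% of all genes in each line. NDUFB4 lies alone at the upper right (0.81, 0.55), TIMM13 at the lower left (-0.52, -0.73), and TOMM7, TOMM34 and NDUFA1 on opposite sides of 0 in the 2 lines.

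The member nearest to a shared fall was TIMM13, a small chaperone that escorts hydrophobic proteins across the intermembrane space (chr19:2425625-2427586). Its level was 45.3 and 25.4 FPKM in AGS-1 and 58.5 and 32.4 FPKM in HGC-27. In both lines the ISO library was the lower, by a deposited log2 ratio of -0.81 ± 0.07 and -0.83 ± 0.06 (counting SE). Relative to the median gene these were -0.52 (AGS-1) and -0.73 (HGC-27). A ratio at least as high was found for 87.7% of all genes (AGS-1) and 98.3% (HGC-27). Its limma estimate was -0.82 ± 0.20 (SE), with an adjusted p of 0.0726 (2 libraries per treatment), just outside the threshold. TIMM9, a partner of TIMM10 in the hexamer that feeds carrier proteins to the inner membrane, stood at 23.9, 14.7, 23.9 and 15.9 FPKM. Its 2 control libraries were level and both ISO libraries lower, with a limma estimate of -0.61 ± 0.19 and an adjusted p of 0.123. TIMM10 itself was at 26.0, 15.1, 44.7 and 41.5 FPKM, with a relative ratio of -0.46 in AGS-1 and a place at the median gene in HGC-27. TIMM8B completes the 4 small chaperones, at 17.1, 11.3, 27.6 and 25.1 FPKM. The 4 had a median relative ratio of -0.41 (AGS-1) and -0.24 (HGC-27), below the medians of the subunits of all 5 complexes and of both translocases. In HGC-27 they were split, with TIMM13 (-0.73) and TIMM9 (-0.45) low but TIMM10 and TIMM8B (-0.03) near the median gene. Assembly factors were not in that comparison. Their medians were -0.08 (complex I), -0.03 (complex II) and -0.004 (COX14 alone) in AGS-1. In HGC-27 these were -0.19, -0.245 and -0.43. TIMM13, TIMM9 and TIMM8B overlap other protein-coding genes in GENCODE 29, and the part of those genes in their values was not tested.

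The largest value in the other direction was that of NDUFB4, an accessory subunit in the membrane arm of complex I (chr3:120596328-120602507). It stood at 17.8 and 26.0 FPKM in AGS-1 and at 15.7 and 21.7 FPKM in HGC-27. Both ISO libraries were above both controls, with deposited log2 ratios of 0.52 ± 0.08 and 0.44 ± 0.08 (counting SE). A ratio at least as high was found for 2.91% of all genes (AGS-1) and 4.72% (HGC-27). The limma estimate was 0.48 ± 0.19 with an adjusted p of 0.187.

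Over all 16 subunits of complex I, NDUFB4 included, the median was -0.05 (AGS-1) and 0.04 (HGC-27). NDUFV1, which binds NADH, was at 37.5, 27.5, 40.8 and 43.8 FPKM. NDUFS8, an iron-sulphur subunit, was at 22.2, 14.3, 23.1 and 20.4 FPKM. Both were lower under ISO in AGS-1, whereas in HGC-27 NDUFV1 was higher under ISO and NDUFS8 lower. NDUFB11, an accessory subunit at 87.2, 47.5, 59.9 and 53.0 FPKM, had the lowest relative ratio of any member in AGS-1 at -0.57. NDUFA1, an accessory subunit at 82.3, 57.0, 71.0 and 97.7 FPKM, was lower under ISO in AGS-1 and had the highest relative ratio of any member in HGC-27 at 0.56. The assembly factor NDUFAF3 was at 17.7, 16.2, 16.1 and 12.7 FPKM.

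Complex II, which oxidises succinate, was held in the table by SDHB and SDHC. SDHB, its iron-sulphur subunit, was at 31.9, 20.5, 24.8 and 20.4 FPKM, lower under ISO in both lines, with an adjusted p of 0.228 by limma. SDHC, a membrane anchor, was at 51.3, 40.1, 32.8 and 31.0 FPKM. In complex III, which passes electrons from quinol to cytochrome c, 4 of 5 subunits lay below the median gene in each line, and the medians were -0.13 and -0.10. CYC1, the cytochrome c1 subunit, was at 80.05, 59.8, 108 and 82.5 FPKM. UQCRFS1, the Rieske protein, was at 49.7, 45.7, 59.3 and 51.4 FPKM. UQCRC1, a core protein, was at 70.5, 48.8, 58.3 and 48.6 FPKM. On the deposited scale CYC1, UQCRFS1 and UQCRC1 were lower in the ISO library of each line. Relative to the median gene, UQCRFS1 was above it in AGS-1 (0.17) and below it in HGC-27 (-0.10). UQCRQ was at 45.4, 33.3, 48.2 and 48.2 FPKM.

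Complex IV, which reduces oxygen, was the complex highest against the median gene in AGS-1 (0.11 over 11 subunits, 7 above it) and was level with it in HGC-27 (-0.02). COX7B was at 9.68 and 10.8 FPKM in AGS-1 and at 29.5 and 25.7 FPKM in HGC-27, and NDUFA4, now counted with complex IV, at 12.3, 13.4, 47.1 and 40.3 FPKM. COX7A2, the isoform found in most tissues, was at 28.99, 31.3, 29.6 and 34.3 FPKM. These 3 small subunits and NDUFB4 had the 4 highest ratios of the list in AGS-1, but in HGC-27 COX7B and NDUFA4 were lower under ISO. COX8A, another small subunit, was the member with the second lowest relative ratio in HGC-27 (-0.58), at 93.3, 63.9, 243 and 150 FPKM. Its limma estimate was -0.61 ± 0.24 with an adjusted p of 0.188. COX4I1, COX5A and COX5B, nuclear subunits that surround the catalytic core, did not move as 1. COX4I1 was at 61.5, 39.7, 52.9 and 48.3 FPKM, COX5A at 59.2, 59.5, 76.8 and 65.7 FPKM and COX5B at 78.4, 55.0, 80.6 and 82.0 FPKM. The assembly factor COX14 was at 18.7, 15.1, 20.2 and 13.6 FPKM. COX6A1, at 41.7, 35.9, 42.1 and 41.3 FPKM, has a pseudogene copy in the table, COX6A1P2, at 25.7, 27.9, 11.6 and 17.0 FPKM, so how reads were split between them is uncertain. COX6B1 was at 84.3, 74.9, 91.9 and 101 FPKM.

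In the ATP synthase the 3 largest subunits of the catalytic head were lower under ISO in both lines. ATP5F1A (α), at 24.4, 17.2, 53.4 and 40.5 FPKM, had relative ratios of -0.19 and -0.28. ATP5F1B (β) had relative ratios of -0.16 and -0.23, and ATP5F1C (γ), at 60.9, 43.9, 86.1 and 63.2 FPKM, of -0.18 and -0.33. The 3 genes for the c-ring, ATP5MC1, ATP5MC2 and ATP5MC3, encode the same mature protein. ATP5MC2 was at 24.5, 17.6, 56.7 and 47.1 FPKM, ATP5MC3 at 26.8, 23.1, 36.2 and 32.6 FPKM and ATP5MC1 at 8.41, 7.81, 22.3 and 20.2 FPKM, the lowest of the 3 in all 4 libraries. Over the 14 subunits the medians were -0.04 and -0.07, with 10 below the median gene in HGC-27 and 7 in AGS-1. Of 21 members listed as catalytic or core in all complexes and translocases, 14 were under the median gene for AGS-1 and 16 for HGC-27. Their medians were -0.16 and -0.12. That list takes in parts of TOM and TIM, COX4I1, COX5A and COX5B, and ATP5MC1 alone among the c-ring genes. The 34 other subunits of the 5 complexes had medians of 0.03 and 0.02. They include no part of TOM or TIM, so the sets are not alike.

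The 5 parts of TOM had median relative ratios of -0.06 (AGS-1) and 0.06 (HGC-27). TOMM7, a small subunit that tunes the assembly of the complex, was at 27.7 and 14.8 FPKM in AGS-1 and at 30.0 and 34.4 FPKM in HGC-27. TOMM40, the channel itself, was at 53.0, 43.6, 40.2 and 25.2 FPKM, with relative ratios of 0.01 and -0.55. The receptors TOMM20 and TOMM70 kept close to the median gene in both lines, at 69.1, 54.1, 64.2 and 59.0 FPKM and at 18.6, 15.04, 12.4 and 11.9 FPKM. TOMM22, the central receptor, was at 22.1, 15.1, 22.4 and 24.3 FPKM. TOMM34, a cytosolic cochaperone, was at 91.1, 59.0, 55.5 and 67.7 FPKM, lower under ISO in AGS-1 and higher in HGC-27. In the inner membrane, TIMM23, the channel, was at 60.0, 42.4, 89.3 and 66.5 FPKM, and TIMM44, which ties the import motor to it, at 21.6, 18.0, 36.4 and 30.7 FPKM. TIMM17A was at 17.4, 16.6, 22.4 and 27.2 FPKM, the only one of the 4 above the median gene in both lines.

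Subunits of the same complex encoded by the mitochondrial genome had higher ISO ratios than the nuclear ones in both lines. In complex I the 7 mitochondrial mRNAs had median relative log2 ratios of 1.16 (AGS-1) and 0.70 (HGC-27), beside -0.05 and 0.04 for the 16 nuclear subunits. For MT-CYB, the only mitochondrial gene of complex III, it was 1.46 and 0.91, beside -0.13 and -0.10. In complex IV the 3 mitochondrial mRNAs had 1.08 and 0.33, beside 0.11 and -0.02. In the ATP synthase the 2 had 1.19 and 0.72, beside -0.04 and -0.07. NDUFB4 in both lines and NDUFA1 in HGC-27 were the only nuclear subunits inside the range of their complex's mitochondrial mRNAs. On the deposited scale 5 of the 13 mitochondrial mRNAs (MT-ATP6, MT-ND4L, MT-ND5, MT-CYB and MT-CO2) were at least 2-fold higher in AGS-1 and none in HGC-27. None of the 13 passed the limma test for ISO. The libraries were made from mRNA, and whether capture of mitochondrial transcripts differed between libraries was not tested.

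**Figure D3:**
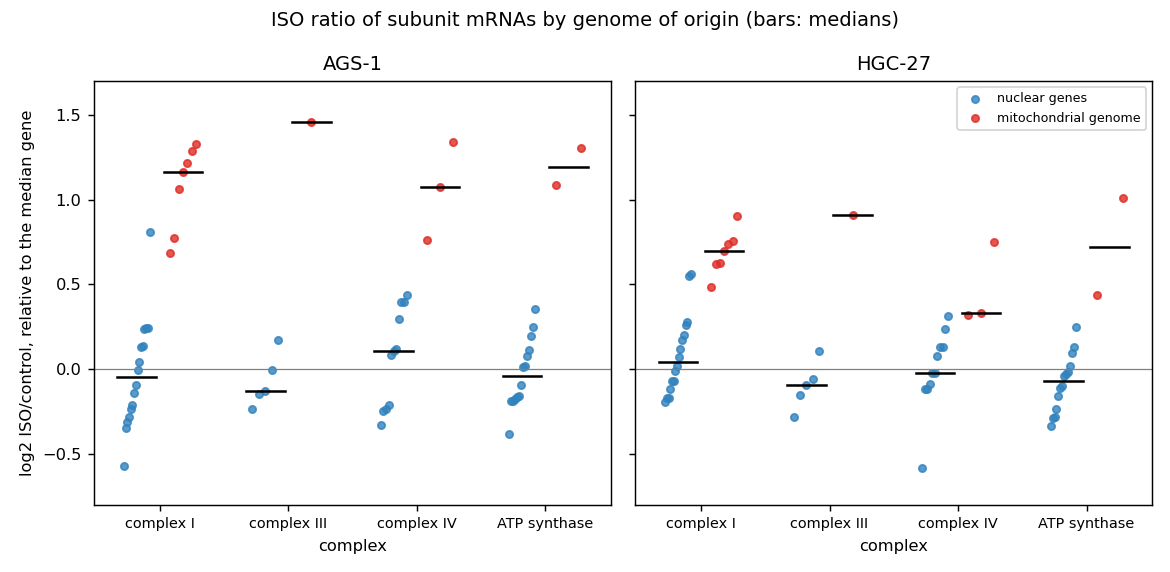
Log2 ratio of ISO to control relative to the median gene for nuclear subunits (blue) and mitochondrial mRNAs (red) of the 4 complexes with both, in AGS-1 (left) and HGC-27 (right), with bars at the medians. The red medians run from 1.08 to 1.46 in AGS-1 and from 0.33 to 0.91 in HGC-27, above all blue medians.

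The difference between the lines, given on the deposited scale unless another scaling is named, ran mostly 1 way. In the same limma fit the 2 libraries per line are its control and its ISO library. At an adjusted p under 0.05, 26 of the 67 members (38.8%) were lower in AGS-1 than in HGC-27, against 24.7% of all genes. A further 4 (5.97%) were higher, against 32.2%. Both AGS-1 libraries lay below both HGC-27 libraries for 38 members (56.7%), against 34.3% of all genes, and above both for 7 (10.4%), against 39.6%. The median difference was -0.30 for the members and 0.05 for all genes (AGS-1 minus HGC-27, log2(FPKM + 1)). It was -0.20 between the control libraries alone and -0.48 between the ISO libraries alone. With each library scaled to its nuclear genes, 39 members were called lower and 1 called higher, against 35.2% and 26.6% of all genes. Of the 67 members, 22 overlap another protein-coding gene, and among the 45 that do not, 19 were called lower and 2 called higher in AGS-1.

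**Figure D4:**
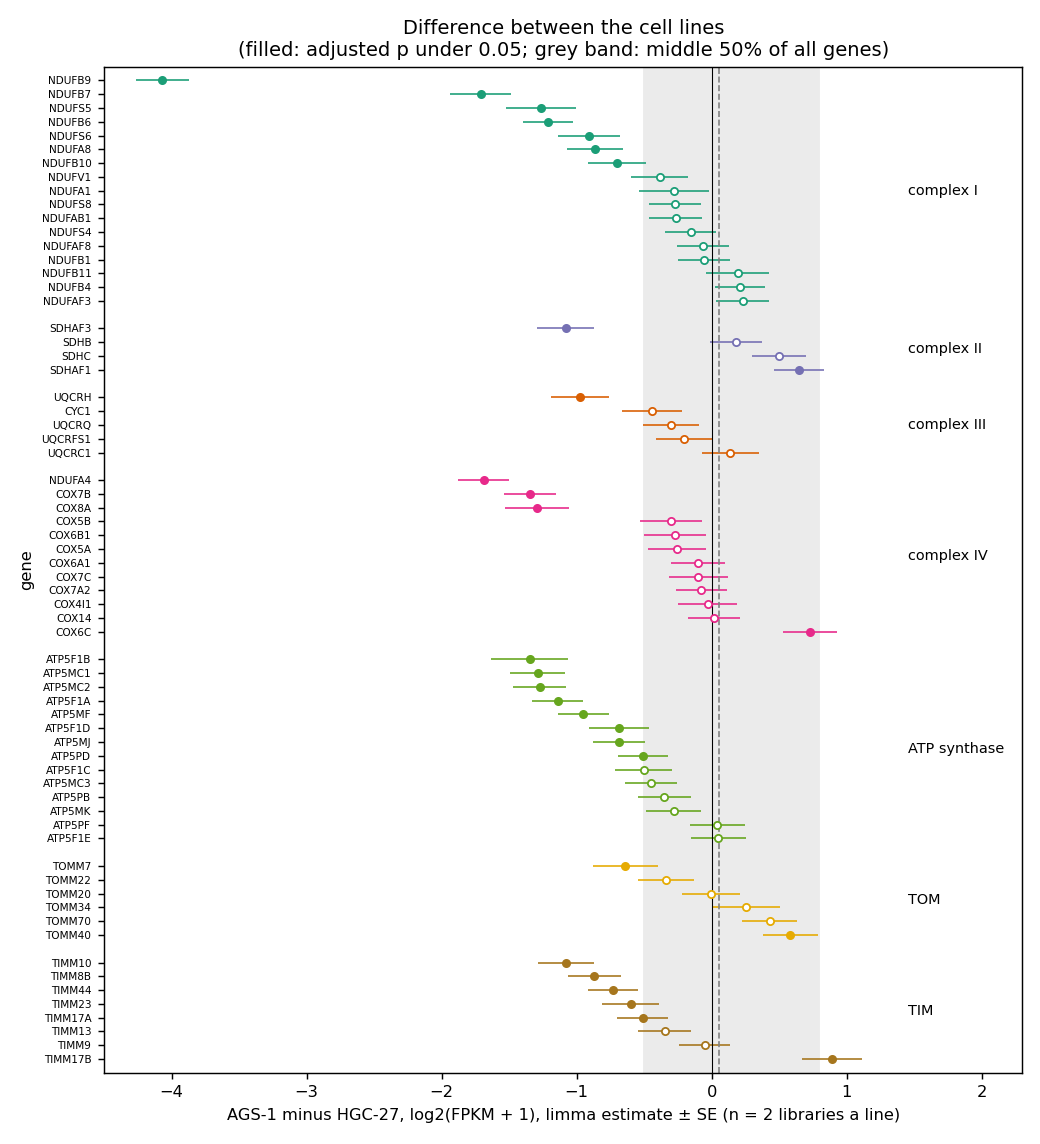
AGS-1 minus HGC-27 on the log2(FPKM + 1) scale for 66 of the 67 members, as limma estimates with SE bars (2 libraries per line), filled where the adjusted p is under 0.05; the grey band is the middle 50% of all genes and the dashed line their median. Most filled points lie left of 0, with 4 filled points to the right (COX6C, SDHAF1, TIMM17B and TOMM40), and NDUFB9 stands far to the left.

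The ATP synthase had the lowest median difference of the 5 complexes, -0.60, and 8 of its 14 subunits were called, all lower in AGS-1. They took in both subunits of the catalytic hexamer, ATP5F1B at -1.35 ± 0.29 (SE, adjusted p = 0.00145 by limma) and ATP5F1A at -1.14 ± 0.19 (adjusted p = 0.000226 by limma). In the annotation ATP5F1A overlaps the gene HAUS1. ATP5MC1 and ATP5MC2 had differences of -1.29 and -1.27, while the third c-ring gene, ATP5MC3, had a difference of -0.45 that missed the threshold (adjusted p = 0.0585 by limma). In the other 6 subunits, ATP5PF and ATP5F1E included at 0.04 and 0.05, no difference was called.

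In complex I, 7 of 16 subunits were called, all lower in AGS-1, and the core subunits NDUFV1 and NDUFS8 were not among them. NDUFB9 had the largest difference of any member, at 3.59, 2.74, 69.3 and 67.7 FPKM and -4.07 ± 0.20 (adjusted p = 1.57e-09 by limma). The table gives it chr8:124539101-124580648 and 16591 bases of exon, beside 1565 bases in the longest coding transcript, and that span overlaps MTSS1 and TATDN1. Whether reads of those genes entered its value was not tested. NDUFB7, an accessory subunit at 56.6, 47.4, 190 and 156 FPKM, differed by -1.71 ± 0.23 (adjusted p = 3.2e-05 by limma) and overlaps no other coding gene. NDUFS5 followed at -1.26 ± 0.26 (adjusted p = 0.00107 by limma).

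Complex IV was split. NDUFA4 (-1.69), COX7B (-1.35) and COX8A (-1.30) were lower in AGS-1, with no overlap between the libraries of the lines. In the annotation COX8A overlaps the gene AP000721.1. COX6C, at 30.4, 20.8, 14.7 and 14.9 FPKM, was higher in AGS-1 by 0.73 ± 0.20 (adjusted p = 0.00796 by limma), and it overlaps VPS13B. The other 7 subunits had differences between -0.30 and -0.03 that did not pass the test. In complex III 1 of 5 subunits was called, UQCRH, the hinge protein next to cytochrome c1, at 53.8, 43.7, 102 and 91.1 FPKM. In complex II neither SDHB (0.18) nor SDHC (0.50, adjusted p = 0.0505 by limma) passed, but its assembly factors went opposite ways. SDHAF1, at 34.5, 26.4, 20.9 and 17.2 FPKM, was higher in AGS-1 by 0.65, and SDHAF3, at 8.95, 7.24, 21.3 and 15.5 FPKM, was lower (-1.08).

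The paralogues of the TIM channel partner also went opposite ways. TIMM17B was at 21.6 and 13.1 FPKM in AGS-1 and at 9.22 and 8.09 FPKM in HGC-27, higher in AGS-1 by 0.89 ± 0.22 (adjusted p = 0.0043 by limma). TIMM17A, at 17.4, 16.6, 22.4 and 27.2 FPKM, was lower in AGS-1 (-0.51 ± 0.19, adjusted p = 0.0364 by limma). Neither pair of libraries overlapped. In the annotation TIMM17B overlaps the gene PQBP1, and the part of that gene in its value was not tested. TIMM23, TIMM44, TIMM10 and TIMM8B were lower in AGS-1 too (-0.60, -0.73, -1.08 and -0.87), while TIMM13 and TIMM9 did not pass. In TOM, TOMM40 was higher in AGS-1 (0.58) and TOMM7 lower (-0.64). The gap in TOMM7 lay in the ISO libraries, at -1.17, beside -0.11 between the controls. TOMM70 had a difference of 0.43 that missed the threshold.

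Of the TCA cycle list, 11 of 17 genes were in the table, and none changed 2-fold under ISO. By the limma test between the lines (adjusted p under 0.05), 5 were called lower in AGS-1 than in HGC-27 and 0 higher. Over all genes 24.7% were called lower and 32.2% higher. Of 42 further respiratory chain and assembly genes, 6 were in the table, 3 called lower in AGS-1 and 1 called higher. Cytochrome c itself (CYCS), the carrier between complexes III and IV, was at 16.5, 15.6, 50.7 and 47.4 FPKM. Of 22 further import genes, 8 were in the table, 4 called lower in AGS-1 and 2 called higher. One of them, ROMO1, a small inner membrane protein, was at 117 and 50.7 FPKM in AGS-1 and at 45.8 and 46.4 FPKM in HGC-27, over 2-fold lower under ISO in AGS-1. Of 14 regulators of mitochondrial biogenesis, 4 were in the table (POLRMT, ESRRA, YY1 and PPRC1), and PPRC1, a coactivator, was lower in AGS-1 at 17.0, 13.5, 41.7 and 36.2 FPKM. None of these list members passed the limma test for ISO.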

How the data were processed

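RNA was extracted with TRIzol and an RNeasy kit, made into libraries with an mRNA kit (VAHTS mRNA-seq V3) and sequenced on an Illumina NextSeq. The submitters' processing notes name CASAVA 1.8, HISAT2 and GRCh38. The counting tool, its strand setting, the annotation and the rule by which genes entered the table are not given in the sources used here. The authors deposited 1 table of FPKM values with gene lengths, and that the unit is FPKM follows from a figure legend of the study. FPKM times length was a whole multiple of 1 step for 100% of values (within 0.05 fragments), which gave the fragments per gene and per library. These served only for depth and for counting errors, which leave out variation between cultures.

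Log2 ratios used a pseudocount of 1 FPKM. A change of at least 2-fold (log2 of 1) was counted as changed, with no test within a line. limma 3.58.1 in R 4.3.3 (lmFit, eBayes with a trend) was fitted to log2(FPKM + 1) of the 2883 genes averaging 1 FPKM or more, with cell line and treatment as terms, and p-values were adjusted over all genes (Benjamini-Hochberg, threshold 0.05). The residual degree of freedom was 1 and the prior 11.45. An interaction of line and treatment could not be fitted. The residual degree of freedom is instead the difference of the ISO ratio between the lines, so the p-values do not measure the spread between replicate cultures. In the test between the lines, the control and the ISO library of a line stood in as its replicates. Nothing in the labels says that the libraries are separate cultures. The scripts were tested on simulated data. Python 3.11.15 with pandas 2.3.3 and numpy 2.4.6 made the summaries.

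The members and lists were chosen with earlier results of these data known. Members were named by rule: core subunits, isoform genes, the highest and lowest of each complex, the 4 largest ratios each way in each line, the 6 largest differences each way between lines, and the 3 lowest, with genes of the other lists that changed at least 2-fold. UQCRH, CYCS, the regulators, the pseudogene and the overlapping genes are named beyond that rule, chosen after their values were seen. Of the 67 members, 1 is counted in the summaries but not reported here by name. Alternatives were other pseudocounts (0.1 and 5), filters, scalings and models.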

Additional observations from a re-analysis of the deposited data

Results flagged for a closer look

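The ratios of 4 members went opposite ways in the 2 lines, on the deposited scale and against the median gene, by more than the 95% counting interval in each. The relative log2 ratio in AGS-1 minus that in HGC-27 was -0.869 for TOMM7 (deposited ratios -0.86 and 0.19), -0.793 for NDUFA1 (-0.52 and 0.45), -0.716 for TOMM34 (-0.62 and 0.28) and -0.347 for NDUFV1 (-0.43 and 0.10). In all 4 the gene was lower under ISO in AGS-1 and higher in HGC-27. With 1 library per line and treatment the difference was not tested. TOMM34 overlaps PABPC1L in the annotation, and the other three overlap no other protein-coding gene.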

How the results depend on the processing

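No member changed 2-fold under ISO in either line under any of the 7 alternatives (pseudocounts, filters and scalings). The median relative ratio stayed between -0.09 and -0.01 in AGS-1 and between -0.06 and -0.03 in HGC-27 over its 9 alternatives. The scalings moved the median of all genes under ISO from -0.29 to between -0.03 and 0.16 in AGS-1 and from -0.11 to between -0.05 and 0.03 in HGC-27. The limma test for ISO called 1 member, TIMM13, with a pseudocount of 0.1 (adjusted p = 0.033 by limma, 107 genes called in all) and 1 with a minimum mean of 10 FPKM, again TIMM13 (adjusted p = 0.0246 by limma, 104 genes). It called 0 under the other 7 alternatives, in which between 0 and 12 genes were called in all and between 0 and 9 members had an unadjusted p under 0.05. Over the pseudocounts, filters and scalings the adjusted p of TIMM13 ran from 0.0246 to 0.258. The difference between the lines was called in 21 to 43 members over 10 alternatives, most of them lower in AGS-1 each time, and in 40 lower and 3 higher members with upper-quartile scaling (36.3% and 27.6% of all genes). With a pseudocount of 0.1, 26 members were called lower and 5 higher, against 25.4% and 32.7% of all genes. With a pseudocount of 5 these were 26 and 4, against 23.8% and 31.5%. TOMM40 lost its call under all 3 scalings, SDHAF1 and COX6C theirs under scaling to nuclear genes, and SDHC was called under 3 alternatives. The relative ratio in AGS-1 moved beyond its counting interval for NDUFB9 with a pseudocount of 5 (from -0.01 to 0.10) and for ATP5F1B with scaling to nuclear genes (from -0.16 to -0.12). No replicate could be left out within a line, since each has 1 library per treatment. The cell line is a term of the limma fit, and no other pairing could be tried because the labels carry no replicate numbers. Depth limits the ratios near 0: the counting SE of a member's log2 ratio reached 0.15, so the sign of small ratios is not determined.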
